A study of Mus musculus with 64 samples.

Results

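The 10 genes described here are the core circadian clock genes Per1, Per2, Per3, Cry1, Cry2, Arntl, Nr1d1 and Nr1d2, the clock output gene Dbp, and Bhlhe40. They were picked by gene symbol alone from transcript tables that list 46785 genes, and the 10 genes have 32 of the 112714 listed transcripts. Levels are in FPKM, a count of sequenced fragments scaled to the length of the transcript and the size of the library, summed over the transcripts of a gene, so they can be set side by side between genes. Each of the 10 genes had a mean of at least 0.1 FPKM in both tissues and entered the tests, beside 37034 genes in all.

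In the mammalian clock, Arntl (BMAL1) and its partner CLOCK bind E-box elements and switch on the Per and Cry genes, whose proteins return to the nucleus and repress that same pair. Nr1d1 and Nr1d2 (REV-ERB alpha and beta) are nuclear receptors that repress Arntl and so form a second loop. Dbp is a transcription factor of D-box elements that is itself driven through E-boxes, and Bhlhe40 (DEC1) is a repressor that competes at E-boxes. Per1, Per2 and Bhlhe40 also answer to signals from outside the clock, such as neuronal activity, cAMP signalling and glucocorticoid hormone, and do so within hours.

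RNA was measured in the nucleus accumbens (NAc) and the prefrontal cortex (PFCx, here the cingulate, prelimbic and infralimbic areas with part of the dorsal peduncular cortex) of adult male C57BL/6N mice, 8 to 10 weeks old. All mice received a single intraperitoneal injection and were killed 2 h later. The drugs were the antipsychotics haloperidol (1 mg/kg) and risperidone (0.5 mg/kg), the antidepressants mianserin (20 mg/kg) and venlafaxine (16 mg/kg), the psychostimulant methamphetamine (2 mg/kg) and the anaesthetic ketamine (20 mg/kg), and the controls received saline. For haloperidol and risperidone the study added a drop of dilute HCl to the saline, and the labels name no control with that vehicle. An effect of the vehicle cannot be told apart from that of these drugs. Each drug had 4 libraries in each tissue, and saline had 8, with 4 in each of its sets I and II, which makes 64 libraries. No allele or transgene was involved. One dose and one time after injection were sampled per drug. All mice were kept on a 12 h light/dark cycle. The labels give no hour of killing, and they do not say which NAc and PFCx libraries came from the same mouse.

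In the NAc, the libraries fell into 2 sample sets by the number of transcripts with a value above 0. Saline set I, haloperidol, risperidone and methamphetamine had 85287 to 87827 such transcripts, and saline set II, mianserin, venlafaxine and ketamine had 107099 to 110556. In the PFCx the number was 108556 to 110852 in all libraries. Each drug was therefore compared with all 8 saline libraries of its tissue and, as a check, with the 4 saline libraries that share its sample set, called matched saline here. The labels give no set for a drug. PFCx libraries were given the set of the same drug in the NAc, so matched saline in the PFCx rests on that assumption. Aligned depth, estimated from the deposited coverage, was 1.52 to 3.26 gigabases per library. The 8 medium spiny neuron markers summed to 448 to 729 FPKM in NAc libraries and 22.2 to 78.8 in PFCx libraries. The 7 cortical neuron markers summed to 185 to 262 FPKM in PFCx libraries and 42.7 to 101 in NAc libraries, so both lists stood in the order the tissue labels give. The highest spiny neuron sums in the PFCx were 78.8 in saline set II replicate 4 and 76.8 in risperidone replicate 3. These are dissected tissues, so fewer cells of a type and less RNA per cell cannot be told apart.

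Promoter sequence was on hand for 8 of the 10 genes (RefSeq, build GRCm38.p6), as 10 windows of the 250 bases before a transcription start. Per2 and Bhlhe40 had no entry. The letters searched on both strands were the E-box CACGTG, the cAMP response element TGACGTCA and its half-site TGACG, which lies within the full element, the D-box TTANGTAA, the half-site AGGTCA bound by the REV-ERB and ROR receptors, and the palindromic glucocorticoid response element. Both Per1 windows are shown because Per1 was called after drugs in both tissues, and the Per3 window because it alone held a D-box. Capitals mark the E-box, the TGACG half-site and the D-box, read 5′ to 3′ on the strand of the gene.
Per1, window before the upstream start, chr11:69098699-69098948, plus strand: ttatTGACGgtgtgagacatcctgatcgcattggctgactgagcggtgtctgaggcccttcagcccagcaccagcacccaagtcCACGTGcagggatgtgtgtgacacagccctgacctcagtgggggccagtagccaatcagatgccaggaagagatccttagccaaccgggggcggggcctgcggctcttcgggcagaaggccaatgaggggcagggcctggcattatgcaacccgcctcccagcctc
Per1, window before the downstream start, chr11:69099902-69100151, plus strand: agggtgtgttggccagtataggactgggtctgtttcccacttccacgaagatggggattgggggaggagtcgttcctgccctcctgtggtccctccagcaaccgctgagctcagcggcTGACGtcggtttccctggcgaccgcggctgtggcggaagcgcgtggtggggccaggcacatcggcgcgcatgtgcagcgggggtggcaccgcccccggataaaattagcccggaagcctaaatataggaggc
Per3, chr4:151044666-151044915, minus strand: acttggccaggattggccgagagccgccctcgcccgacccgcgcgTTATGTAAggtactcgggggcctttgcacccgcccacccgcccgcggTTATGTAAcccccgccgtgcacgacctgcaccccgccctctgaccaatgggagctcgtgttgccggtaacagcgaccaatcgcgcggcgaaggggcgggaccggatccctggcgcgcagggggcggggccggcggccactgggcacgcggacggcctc

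The upstream Per1 window held an E-box that began at base -166 and a TGACG half-site at -246, and the downstream window, which lies in an intron of 2 Per1 transcripts, held a half-site at -132. The Per3 window held 2 D-boxes, at -205 and -158. An E-box was in the windows of Per1 and Cry1, against 6.02% of all 32851 windows, and a TGACG half-site in those of Per1, Cry1 and Cry2, against 17.8%. Only Per3 of the 8 genes had a D-box (2.06% of all windows), and Per1 and Nr1d2 had AGGTCA (14%). The full cAMP response element (1.55%) and the glucocorticoid response element (0.387%) were in none of the 10 windows. A match of letters is a description of the window and says nothing of binding.

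After saline, Dbp was the most abundant of the 10 genes in the NAc and Bhlhe40 in the PFCx. In the NAc, Dbp stood at 24.0 ± 3.59 FPKM (SD, n = 8), and the order went on with Cry2 (13.3 ± 0.966), Nr1d2 (12.1 ± 1.16), Nr1d1 (10.2 ± 0.933), Per3 (9.07 ± 0.839), Per1 (8.12 ± 1.12), Bhlhe40 (7.06 ± 0.805), Per2 (4.56 ± 0.511), Arntl (3.56 ± 0.419) and Cry1 (3.33 ± 0.364). Dbp and Cry2, and Bhlhe40 and Per2, were the neighbours whose libraries did not overlap, and the other neighbours in this order overlapped. In the PFCx, Bhlhe40 stood at 21.7 ± 2.95 FPKM, ahead of Dbp (13.8 ± 2.12), Cry2 (13.7 ± 0.975), Nr1d2 (11.5 ± 0.785), Nr1d1 (10.5 ± 1.23), Per3 (8.02 ± 0.507), Per1 (6.38 ± 1.05), Per2 (5.48 ± 1.08), Arntl (4.40 ± 0.239) and Cry1 (2.39 ± 0.169). Here Bhlhe40 and Dbp, Nr1d1 and Per3, and Arntl and Cry1 did not overlap, and the means of Dbp and Cry2 were within their spread of each other.

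The comparison of tissues after saline asks where the clock genes were set at a different level. Of the 10 genes, 7 differed at an adjusted p under 0.05 (limma, Benjamini-Hochberg over all genes), where 44.9% of all genes did. They were 4 genes higher in the NAc, against 8.89% of all genes, and 3 lower, against 36%. Bhlhe40 was lower in the NAc by 1.49 on the log2(FPKM + 1) scale (adjusted p = 2.81e-09). Its NAc level of 7.06 ± 0.805 FPKM (lowest 5.96, highest 8.68) did not overlap the PFCx level, whose lowest library was at 17.7, and the PFCx mean was 3.07-fold higher. Dbp went the other way and was 1.74-fold higher in the NAc (log2 difference 0.76, adjusted p = 5.69e-06), again with no overlap between the tissues. Cry1, a repressor of the loop, was 1.39-fold higher in the NAc (0.35, adjusted p = 0.000138), and Arntl, its activator, was 1.24-fold higher in the PFCx (-0.25, adjusted p = 0.00104). Neither overlapped between the tissues.

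The other 3 called differences were small. Per1 was higher in the NAc (0.31, adjusted p = 0.0110), Per3 was higher there too (0.16, adjusted p = 0.0312) and Per2 was lower (-0.21, adjusted p = 0.0439). The Per2 sums were 4.56 FPKM in the NAc and 5.48 in the PFCx. Its long transcript, ENSMUST00000069620, had means of 3.22 and 3.28, so most of this gap lay in a 231-base transcript. Saline set I alone gave 5 calls (35.3% of all genes) and set II alone 4 (20.8%). Per2 and Per3 were called in neither set alone, and Per1 was not called in set II alone (0.20, adjusted p = 0.339). The Per2 call was also lost without any of 11 of the 16 saline libraries (adjusted p up to 0.0863), which were NAc set I replicates 1, 2 and 4, NAc set II replicates 2, 3 and 4, PFCx set I replicates 2 and 4 and PFCx set II replicates 1, 2 and 3. The Per3 call was lost without any of 7 (adjusted p up to 0.0640), which were NAc set I replicates 1 and 4, NAc set II replicates 1 and 4, PFCx set I replicate 1 and PFCx set II replicates 3 and 4. When each library was rescaled to the same 75th percentile, Per1 (0.15, adjusted p = 0.117) and Per3 were no longer called and Per3 turned its direction (-0.0064), while Cry2 and Nr1d1 were called lower in the NAc, both at -0.20. Cry2, Nr1d1 and Nr1d2 differed by -0.03, -0.03 and 0.06, and were not called. Markers of oligodendrocytes moved with the tissue as well, with 4 of 4 higher in the NAc (median 1.93), and their part in these differences was not tested.

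**Figure D1:**
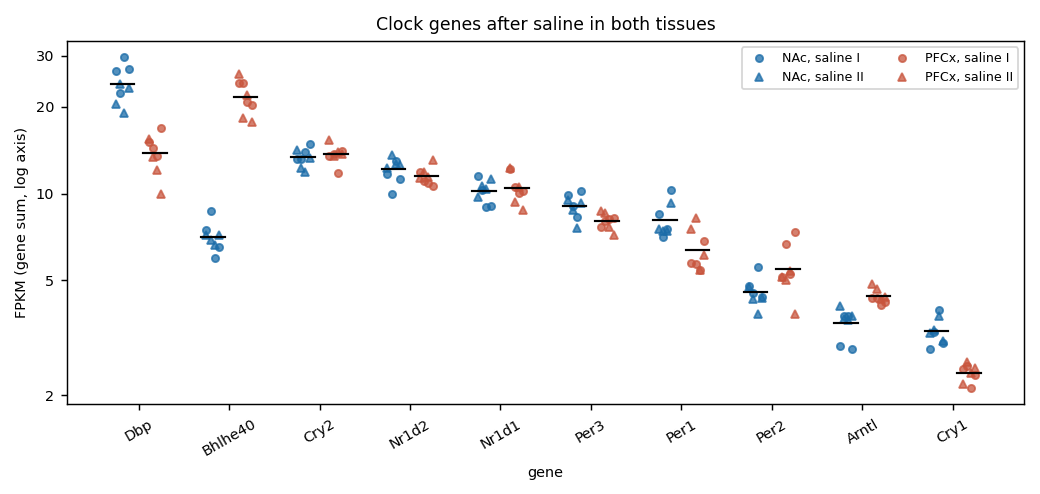
FPKM of the 10 genes (log axis) in the 8 saline libraries of the NAc and of the PFCx, with circles for saline set I, triangles for set II and a line at the mean. The NAc and PFCx points of Bhlhe40, Dbp, Cry1 and Arntl do not overlap, and Bhlhe40 moves from 7.06 FPKM in the NAc to 21.7 in the PFCx.

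Since clock transcripts swing through the day, the 2 saline sets were set against each other as a check of time of day. None of the 10 genes differed between the sets in either tissue at an adjusted p under 0.05 in limma, with or without a mean-variance trend, while 24.7% of NAc genes and 9.2% of PFCx genes did. At an unadjusted p under 0.05 there were 2 in NAc tissue and 0 in PFCx tissue. Without saline set I replicate 3, 1 NAc member was called. These 2 were Dbp, at 26.4 ± 3.05 FPKM in set I and 21.6 ± 2.37 in set II (SD, n = 4; log2 difference -0.27, 95% interval -0.53 to -0.02, adjusted p = 0.104), and Nr1d2 (0.15, adjusted p = 0.131). Arntl differed by 0.15 in the NAc (95% interval -0.03 to 0.33, adjusted p = 0.231) and Nr1d1 by 0.07 (adjusted p = 0.632). In the PFCx the widest differences were Per2 at -0.28 and Dbp at -0.23. The long Per2 transcript there had means of 3.30 FPKM in set I and 3.27 in set II. The 231-base Per2 transcript had 2.81 and 1.58, so the gap of the sum lay in the short one. The Bhlhe40 sum differed by -0.10 in the PFCx, its main transcript by 0.12 (adjusted p = 0.413) and a 476-base transcript by -1.25 (adjusted p = 0.323). At the gene level the libraries of the sets overlapped for each of the 10 genes in each tissue, and the lowest exact two-sided permutation p over the 20 gene and tissue pairs was 0.0857, where 4 against 4 libraries allow 0.0286.

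The scale mattered for this check in the NAc. The median of all genes was 0.08 higher in set II than in set I on the scale as deposited, and 0.23 higher after rescaling to the same 75th percentile. The percentile is taken over transcripts with a value above 0, whose number itself differed between the NAc sample sets. Under that rescaling 9 of the 10 genes, all but Dbp, were called higher in set II, where 59.5% of all genes were, and so the direction of a difference between the NAc sets was tied to the scale. On the deposited scale, other genes called lower in NAc set II were all 4 oligodendrocyte markers, Slc17a7 (46.5 to 23.6 FPKM) and Neurod2 of the 7 cortical neuron markers, Gfap of the 4 astrocyte markers, Csf1r of the 4 microglia markers, Junb and Nr4a1 of the 7 activity genes and Ddit4 of the 6 glucocorticoid genes, and Folr1 of the 4 choroid plexus markers was called higher. Their part in the result was not tested.

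Below the level of the 10 genes, some clock transcripts did differ between the saline sets. Of the 32 transcripts of the members, none was called in the NAc (6.16% of all transcripts were), with 2 at an unadjusted p under 0.05, and 1 in the PFCx (4.47%), with 6. The called one was the main Cry2 transcript, ENSMUST00000090559, which held 70.9% of the gene sum and read 8.14 to 9.34 FPKM in PFCx set I and 10.4 to 10.9 in set II (0.26, adjusted p = 0.0117). The main Nr1d2 transcript, ENSMUST00000090543, did not overlap either, at 7.71 to 8.31 against 9.09 to 11.02 FPKM, and was not called (0.25, adjusted p = 0.133), while the other Nr1d2 transcript was lower in set II without overlap (-0.38, adjusted p = 0.316). Among other clock genes, Timeless (1.73 to 3.65 FPKM, 0.75, adjusted p = 0.000532) and Clock (0.19, adjusted p = 0.0435) were higher in PFCx set II, and Csnk1e was lower in NAc set II (-0.29, adjusted p = 0.0470).

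**Figure D2:**
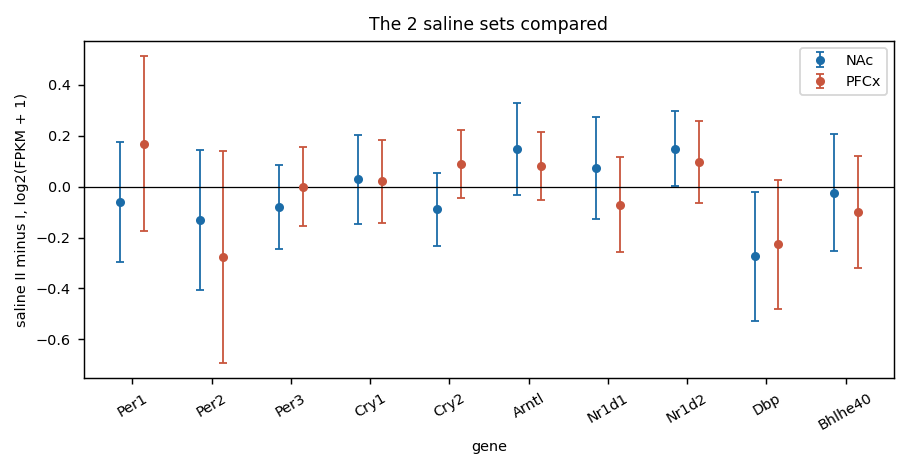
Difference of saline set II minus set I on the log2(FPKM + 1) scale for the 10 genes, with 95% confidence intervals, in the NAc (blue) and the PFCx (red). The intervals of Dbp and Nr1d2 in the NAc leave 0, and Per2 in the PFCx has the largest estimate, -0.28, with an interval that crosses 0.

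Against saline, the members that changed in the NAc were Per1, Per2 and Bhlhe40, which rose, and Dbp, which fell. In the PFCx they were Per1 and Bhlhe40, which rose. At an adjusted p under 0.05, 7 of 60 pairs of gene and drug were called in NAc tissue, against 1.21% of all tested pairs, and 4 of 60 in PFCx tissue, against 0.285%. The PFCx count fell to 2 without risperidone replicate 1, 2 or 4. Haloperidol accounted for 3 of the NAc calls, all higher (0.527% of all genes were called higher), and risperidone (0.446%) and methamphetamine (0.162%) for 1 higher call each. Mianserin (0.41% lower) and ketamine (0.54% lower) had 1 lower call each. In the PFCx, risperidone had 2 higher calls (0.284%), and mianserin (0.343%) and methamphetamine (0.27%) had 1 each. Venlafaxine had no NAc call (1.83% of all genes in either direction), with 2 members at an unadjusted p under 0.05. Haloperidol (0.162%), venlafaxine (0.0054%) and ketamine (0.0162%) had no PFCx call, with 3, 1 and 1 members at an unadjusted p under 0.05.

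Against matched saline, with 4 control libraries in place of 8, 1 pair was called in the NAc (0.297% of all pairs) and 3 in the PFCx (0.767%). A test over all 6 drugs together called Per1 alone in the NAc (F, adjusted p under 0.0001, met by 0.815% of genes, Per1 at 9.08e-05) and no member in the PFCx (0.13% of genes), where 6 members had an unadjusted p under 0.05. The Per1 call in this test was lost without any of 28 of the 32 NAc libraries, and after rescaling it was Per3 and Cry2 that passed it in the NAc (9.8% of genes). After rescaling to the same 75th percentile, Per2 after haloperidol was the one of the 7 NAc calls that stayed (0.46, adjusted p = 0.0478). In all, 10 NAc pairs were called on that scale, where 6.76% of all pairs were. The 9 others were all higher after mianserin or ketamine, against 12.2% of all pairs for these drugs, and were Per1, Cry2 and Bhlhe40 after mianserin and Per1, Per2, Cry1, Cry2, Nr1d2 and Bhlhe40 after ketamine. All 4 PFCx calls stayed (0.287% of all pairs). The direction of the 11 called pairs was the same on both scales. Over all genes, rescaling moved the median NAc difference from -0.05 to -0.11 for the drugs of sample set I, and to between 0.12 and 0.13 for those of set II.

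**Figure D3:**
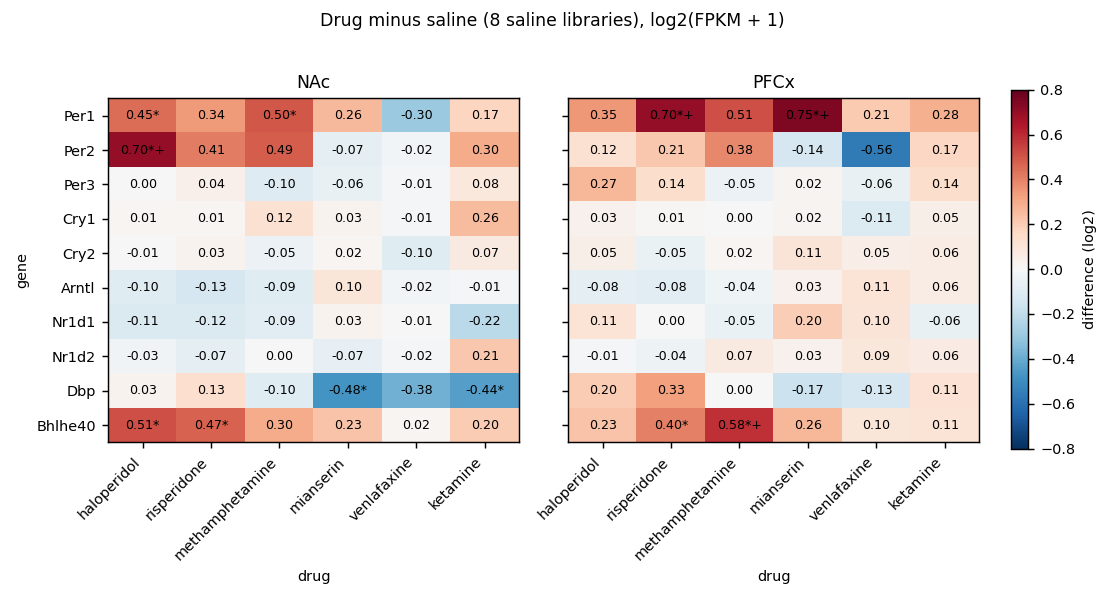
Drug minus saline differences of the 10 genes on the log2(FPKM + 1) scale, for 6 drugs in the NAc and the PFCx, with a star where the adjusted p against 8 saline libraries was under 0.05 and a plus where it was against matched saline. The largest values are 0.75 (Per1 after mianserin, PFCx) and 0.70 (Per2 after haloperidol, NAc, and Per1 after risperidone, PFCx).

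Per1 (ENSMUSG00000020893, chr11:69095217-69109960, plus strand, GRCm38) encodes a repressor of the loop and is the Per gene best known for rapid induction. In the NAc its saline level was 8.12 ± 1.12 FPKM (lowest 7.07, median 7.54, highest 10.2). After methamphetamine the libraries read 12.02, 11.5, 10.8 and 12.96 FPKM, all above the 8 saline libraries, a mean of 11.8 ± 0.911 (n = 4) and 1.45-fold the saline mean. The log2 difference was 0.50 (95% interval 0.30 to 0.70, adjusted p = 0.0227), and the exact two-sided permutation p was 0.00202, the smallest that 4 against 8 libraries allow, as 1 of 120 such tests and not adjusted for their number.

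After haloperidol, Per1 in the NAc read 12.7, 11.1, 11.7 and 10.2 FPKM, with the lowest of these inside the saline range. The log2 difference was 0.45 (SE 0.10, adjusted p = 0.0250). Both calls were lost against saline set I alone, at 0.47 (adjusted p = 0.182) and 0.42 (adjusted p = 0.222), and after rescaling, at 0.27 (adjusted p = 0.188) and 0.19 (adjusted p = 0.272). The methamphetamine call was also lost without methamphetamine replicate 4 (adjusted p = 0.121), 1 or 2, and the haloperidol call without haloperidol replicate 1 (adjusted p = 0.109), 2 or 3 or saline set II replicate 2 or 3. Risperidone (11.9, 11.9, 8.14 and 10.4 FPKM) and mianserin (9.28, 12.3, 8.51 and 9.62 FPKM) had differences of 0.34 and 0.26 with adjusted p = 0.109 and 0.133. Venlafaxine was the one drug with a lower NAc mean, at 6.23, 6.64, 7.41 and 5.40 FPKM, 0.790-fold the saline mean (adjusted p = 0.0896).

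In the PFCx, Per1 was at 6.38 ± 1.05 FPKM after saline (lowest 5.41, median 5.92, highest 8.23). After mianserin it read 12.1, 11.9, 9.48 and 11.7 FPKM, above all 8 saline libraries and 1.77-fold the saline mean, with a log2 difference of 0.75 (95% interval 0.45 to 1.04, adjusted p = 0.00866). After risperidone it read 12.4, 11.7, 7.92 and 12.2 FPKM, 1.73-fold the saline mean (0.70, 95% interval 0.40 to 1.00, adjusted p = 0.0182). Here 3 libraries stood far above saline, and replicate 3, the library with the high spiny neuron sum, lay inside the saline range. Both rises held against matched saline, at 0.66 (adjusted p = 0.0341) for mianserin and 0.78 (adjusted p = 0.0477) for risperidone. With the other saline set left out of the fit altogether, both calls were lost (adjusted p = 0.0503 and 0.0663). The main Per1 transcript in the PFCx read 4.02 to 8.17 FPKM after mianserin and 4.24 to 5.25 after risperidone. Both lay above its saline range of 1.72 to 3.38, with no call.

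The risperidone call on Per1 in the PFCx was lost without replicate 1, 2 or 4 (adjusted p up to 0.0897), and without the 2 PFCx libraries of high spiny neuron sum the difference was 0.83 (adjusted p = 0.0149). Methamphetamine gave 9.57, 10.3, 7.93 and 10.1 FPKM, 1.49-fold the saline mean, which did not pass the adjustment (0.51, adjusted p = 0.177, exact permutation p = 0.00404). Haloperidol differed by 0.35 (adjusted p = 0.283), and venlafaxine and ketamine by 0.21 and 0.28, with libraries inside and above the saline range.

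**Figure D4:**
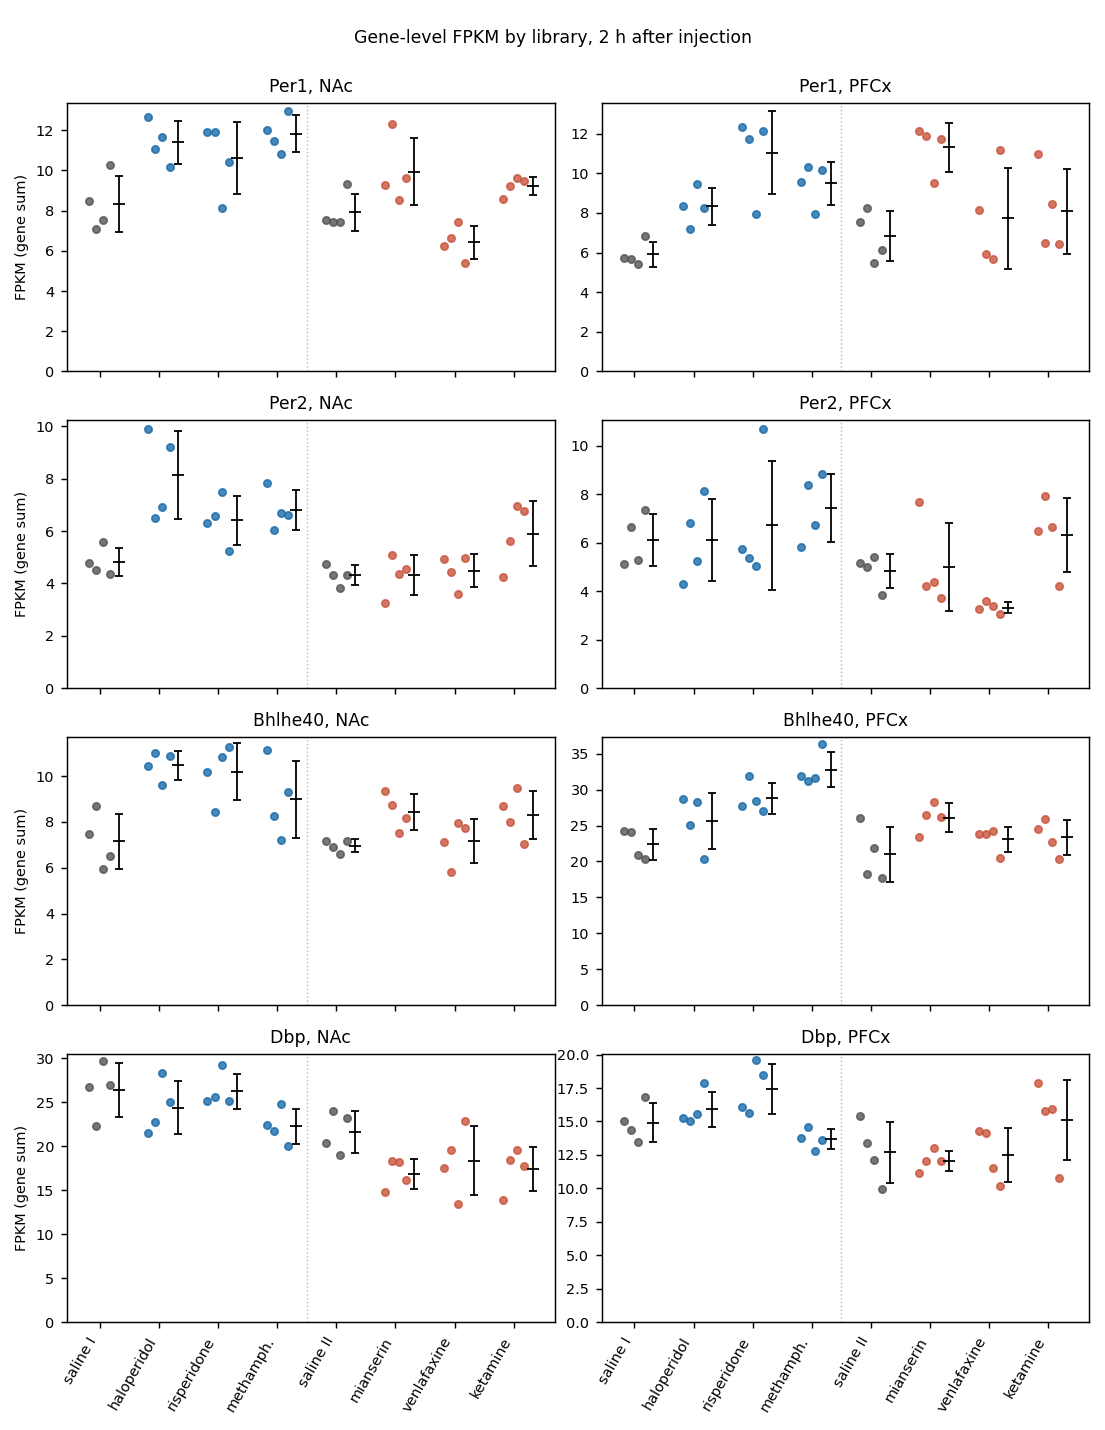
FPKM in each library of the members called after a drug, Per1, Per2, Dbp and Bhlhe40, in the NAc and the PFCx, with saline in grey, the drugs of sample set I in blue, those of set II in orange, and bars for mean ± SD. Per1 sits above all saline points after methamphetamine in the NAc and after mianserin in the PFCx, and the 4 mianserin points of Dbp in the NAc, 14.8 to 18.3 FPKM, sit below them.

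Per2 (ENSMUSG00000055866, chr1:91415982-91459324, minus strand) encodes the partner repressor of Per1. Its NAc level after saline was 4.56 ± 0.511 FPKM (lowest 3.83, median 4.45, highest 5.58). After haloperidol it read 9.90, 6.50, 6.92 and 9.20 FPKM, all above saline and 1.78-fold the saline mean. This gene sum joins a long and a 231-base transcript. The long one had a mean of 4.69 of 8.13 FPKM after haloperidol and 3.22 of 4.56 after saline, so the larger part of the rise lay in the short one. The difference of the gene sum was 0.70 (SE 0.12, 95% interval 0.46 to 0.94, adjusted p = 0.00124), and it was the one NAc call that held against matched saline (0.64, adjusted p = 0.0324). It also held with each library left out in turn, but not with matched saline and the replicate number as a block together (adjusted p = 0.0643), and not with set II left out of the fit altogether (adjusted p = 0.0599).

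After methamphetamine, Per2 in the NAc read 7.85, 6.05, 6.68 and 6.60 FPKM, again above all saline libraries (1.49-fold, exact permutation p = 0.00202), yet the difference of 0.49 had an adjusted p of 0.0834. Risperidone and ketamine differed by 0.41 and 0.30 (adjusted p = 0.1003 and 0.144), mianserin by -0.07 and venlafaxine by -0.02. In the PFCx no drug was called. There saline stood at 5.48 ± 1.08 FPKM (lowest 3.84, highest 7.35), and the 4 venlafaxine libraries, between 3.06 and 3.6003 FPKM, all lay below it (log2 difference -0.56, exact permutation p = 0.00202, adjusted p = 0.446). The long transcript had a mean of 2.93 of 3.33 FPKM after venlafaxine in the PFCx and 3.28 of 5.48 after saline.

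The gene sum of Per2 joins 2 transcripts of very different length. ENSMUST00000069620, with 5833 bases in 23 exons, held 65.6% of it, and a 231-base transcript held the other 34.4%. The long transcript varied little after saline, at 3.22 ± 0.107 FPKM in the NAc (lowest 3.01, highest 3.34) and 3.28 ± 0.250 in the PFCx (lowest 3.00, highest 3.70). After methamphetamine it read 5.48, 4.39, 4.998 and 5.02 FPKM in NAc libraries and 5.02, 4.86, 4.81 and 4.65 in PFCx libraries, above all saline libraries in both tissues. These differences were 0.50 (adjusted p = 0.000854 over all 86331 transcripts tested) and 0.45 (adjusted p = 0.00114).

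After haloperidol the long Per2 transcript read 4.48, 4.57, 5.59 and 4.10 FPKM in the NAc (0.42, adjusted p = 0.0034), and its PFCx difference was 0.24 (adjusted p = 0.206). All 3 of its calls held against matched saline, with adjusted p of 0.0117 (methamphetamine, NAc), 0.0376 (haloperidol, NAc) and 0.0155 (methamphetamine, PFCx), and with each library left out in turn. With set II left out of the fit altogether, the haloperidol call was lost at a like difference (0.42, adjusted p = 0.0709). After rescaling, the PFCx call stayed (0.46, adjusted p = 0.000537), and the NAc differences of 0.29 after methamphetamine (adjusted p = 0.277) and 0.19 after haloperidol (adjusted p = 0.324) were no longer called. Risperidone and ketamine had NAc means of 4.08 and 3.98 FPKM and PFCx means of 3.92 and 4.03, with no call. Mianserin had means of 3.12 and 3.24 FPKM. After venlafaxine the NAc libraries read 2.88, 3.22, 2.82 and 2.79 FPKM, with 3 of 4 below all saline libraries, and the PFCx mean was 2.93, with no call. Over the 32 transcripts of the 10 genes, 5 transcript and drug pairs were called in NAc tissue, against 0.193% of all such pairs, and 4 in PFCx tissue, against 0.107%. Against matched saline the counts were 2 (0.114%) and 3 (0.285%). The 9 called pairs all belonged to this Per2 transcript and the main Bhlhe40 transcript.

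Bhlhe40 (ENSMUSG00000030103, chr6:108660629-108666925, plus strand), the E-box repressor, was the member with the widest gap between the tissues after saline, as above. In the NAc it read 10.4, 11.01, 9.61 and 10.9 FPKM after haloperidol, above all saline libraries and 1.48-fold the saline mean (0.51, 95% interval 0.32 to 0.71, adjusted p = 0.00506). After risperidone it read 10.2, 8.43, 10.8 and 11.3 FPKM, 1.44-fold the saline mean, with replicate 2 inside the saline range (0.47, adjusted p = 0.0131). Against saline set I alone these differences were 0.50 (adjusted p = 0.0538) and 0.46 (adjusted p = 0.102), and after rescaling they were 0.26 (adjusted p = 0.189) and 0.24 (adjusted p = 0.228). The risperidone call was lost without risperidone replicate 4 (adjusted p = 0.0815), 3 or 1. Methamphetamine, mianserin and ketamine differed by 0.30, 0.23 and 0.20 in the NAc with no call.

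In the PFCx, Bhlhe40 ranged from 17.7 to 26.0 FPKM after saline (median 21.4). After methamphetamine the libraries read 31.8, 31.2, 31.6 and 36.4 FPKM, all above saline and 1.51-fold its mean, and the difference of 0.58 (SE 0.09, adjusted p = 0.00136) held against saline set I (0.53, adjusted p = 0.0335). After risperidone they read 27.7, 31.9, 28.5 and 27.0 FPKM, also above all saline libraries (1.33-fold, 0.40, adjusted p = 0.0410). This call was lost against saline set I (0.35, adjusted p = 0.341), with a pseudocount of 0.1, without the 2 libraries of high spiny neuron sum (adjusted p = 0.185), and without any of 9 single libraries, which were the 4 risperidone libraries, saline set II replicates 2, 3 and 4, methamphetamine replicate 1 and mianserin replicate 2. Haloperidol (0.23, adjusted p = 0.263) and mianserin (0.26, adjusted p = 0.290) were not called for the gene.

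The main Bhlhe40 transcript, ENSMUST00000032194 (3113 bases, 5 exons), held 75.3% of the gene sum. In the PFCx it was at 16.04 ± 1.49 FPKM after saline (lowest 14.1, highest 19.2), and methamphetamine brought 23.3, 22.6, 23.8 and 23.4 FPKM (0.51, adjusted p = 4.84e-05) and mianserin 21.8, 20.1, 21.4 and 20.9 FPKM (0.38, adjusted p = 0.0018). All 8 of these libraries lay above the saline range, and both calls held against matched saline (adjusted p = 9.57e-05 and 0.0192), after rescaling (adjusted p = 0.000363 and 0.00196) and with each library left out in turn. With a pseudocount of 0.1, the mianserin call was lost (0.40, adjusted p = 0.0781). Risperidone reached a mean of 19.7 FPKM (0.28, adjusted p = 0.0487), a call that was lost against matched saline (adjusted p = 0.0552), after rescaling (adjusted p = 0.129), without the libraries of high spiny neuron sum (adjusted p = 0.337) and without any of 28 of the 32 PFCx libraries. In the NAc, where saline was at 5.31 ± 0.546 FPKM (highest 6.43), the transcript rose after haloperidol (7.47 FPKM, 0.43, adjusted p = 0.0155), risperidone (7.36 FPKM, 0.41, adjusted p = 0.0275) and mianserin (7.11 FPKM, 0.36, adjusted p = 0.0379). After methamphetamine it read 8.55, 6.69, 6.48 and 7.90 FPKM, above all saline libraries, with an adjusted p of 0.0559 (0.41). None of these 3 held against matched saline, where the adjusted p was 0.227, 0.254 and 0.0626, and after rescaling the mianserin rise alone was called (0.61, adjusted p = 0.00153, against 0.389 and 0.411). A pseudocount of 0.1 lost all 3 (adjusted p = 0.103, 0.138 and 0.111). Without saline set II replicate 2, 3 or 4 the risperidone and mianserin calls were lost and 3 NAc transcript calls were left. The haloperidol call was lost without haloperidol replicate 1, 2 or 3, the risperidone call without any risperidone library, and the mianserin call without mianserin replicate 1, 3 or 4 or saline set I replicate 1 or 3 (adjusted p up to 0.138).

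**Figure D5:**
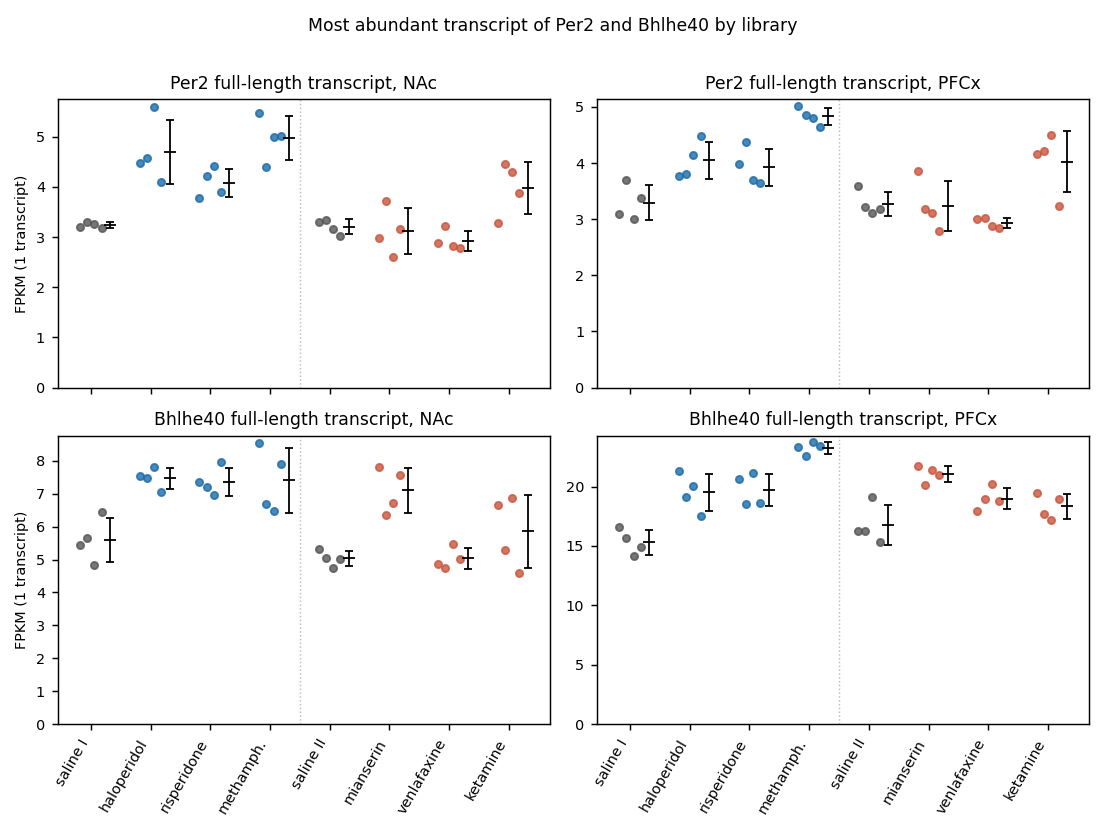
FPKM by library of the main transcripts of Per2 (ENSMUST00000069620) and Bhlhe40 (ENSMUST00000032194) in the NAc and the PFCx, with saline in grey, drugs of sample set I in blue and of set II in orange, a dotted line between the sample sets, and bars for mean ± SD. The Per2 transcript lies in a narrow saline band, 3.01 to 3.34 FPKM in the NAc, with the methamphetamine libraries above it in both tissues.

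Dbp (ENSMUSG00000059824, chr7:45705088-45710203, plus strand), the D-box output factor of the clock, was the member called lower after a drug. Its NAc level after saline was 24.0 FPKM (lowest 18.9, median 23.6, highest 29.7). After mianserin it read 14.8, 18.3, 18.2 and 16.1 FPKM, below all 8 saline libraries and 0.701-fold their mean (log2 difference -0.48, 95% interval -0.71 to -0.25, adjusted p = 0.0295). After ketamine it read 13.9, 18.5, 19.6 and 17.7 FPKM, with 1 library inside the saline range (0.725-fold, -0.44, adjusted p = 0.0421). These values are gene sums, and no Dbp transcript was called. The main one, ENSMUST00000080885, held 46.2% of the sum. In the NAc it read 7.88 to 8.29 FPKM after mianserin and 6.97 to 9.88 after ketamine. Both ranges overlapped its saline range of 7.97 to 16.3. For the gene sum, venlafaxine, at 17.5, 19.5, 13.5 and 22.9 FPKM, differed by -0.38 (adjusted p = 0.0663).

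All 3 of these drugs belong to sample set II, whose saline libraries had a lower mean of Dbp than those of set I (21.6 against 26.4 FPKM). Against saline set II the differences of mianserin and ketamine were -0.34 (adjusted p = 0.385) and -0.30 (adjusted p = 0.362), and after rescaling they were -0.21 (adjusted p = 0.127) and -0.22 (adjusted p = 0.115), so neither call held. The mianserin call was also lost without mianserin replicate 4 (adjusted p = 0.0871) or 1 or saline set I replicate 1, 3 or 4, and the ketamine call without any of 10 single libraries (up to an adjusted p of 0.130 without ketamine replicate 1), which were the 4 of ketamine, the 4 of saline set I and methamphetamine replicates 1 and 2. Haloperidol, risperidone and methamphetamine had NAc means of 24.4, 26.2 and 22.2 FPKM. In the PFCx no drug was called for Dbp, and the largest difference was 0.33 after risperidone (adjusted p = 0.171). Beside the ketamine values in the NAc, 2 of 4 oligodendrocyte markers were called higher (summed FPKM 630 to 695, against 487 to 667 after saline) and 1 of 8 spiny neuron markers lower, and their part in the result was not tested.

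The other 6 members had no called drug difference in the main comparison. Per3, the third Per gene, came closest in the PFCx, where haloperidol gave 9.20, 10.2, 10.2 and 9.79 FPKM against 7.17 to 8.72 after saline (1.23-fold, 0.27, adjusted p = 0.0885, exact permutation p = 0.00202). Its NAc differences ran from -0.10 to 0.08. Cry1 after ketamine in the NAc read 4.42, 4.15, 4.03 and 4.03 FPKM, above the saline range of 2.88 to 3.95 (1.25-fold, 0.26, adjusted p = 0.0602), and was called when no filter on low genes was used and after rescaling. Cry2, its paralog, stayed within -0.10 to 0.11 over both tissues and all drugs.

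Arntl, the activator, stayed within -0.13 to 0.11. Among the REV-ERB receptors, ketamine in the NAc left Nr1d1 at 8.75, 8.62, 8.31 and 8.89 FPKM, below all saline libraries (-0.22, adjusted p = 0.146), and Nr1d2 at 14.6, 13.9, 14.6 and 13.5 FPKM, a difference of 0.21 (adjusted p = 0.0788). Neither was called, and against saline set II their adjusted p was 0.324 and 0.542. Members that share an overlap with another gene include Cry2, Per3, Bhlhe40, Dbp, Arntl and Nr1d1, and whether the read assignment used strand is not given in the sources used here. Camta1 overlaps all 41014 bases of Per3 on the same strand, so strand would not separate these genes. The overlaps of the other members named are on the opposite strand.

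Whether a drug moved a member differently in the 2 tissues was tested as an interaction. No member passed the F test over 6 drugs (adjusted p under 0.001, met by 1.01% of genes), and 2 had an unadjusted p under 0.05. The lowest adjusted p was that of Per1, 0.0640. After rescaling, Per3 passed it (6.19% of genes). Among single drugs none of the 60 pairs was called (0.0873% of all pairs were), with 10 at an unadjusted p under 0.05, and the lowest adjusted p was 0.0771, for Dbp after ketamine, with a NAc minus PFCx difference of -0.55. A rise called in one tissue and not in the other, as for Per2 after haloperidol, was thus not shown to differ between them.

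The wider clock list held further genes, among them Clock, Npas2, Arntl2, Rora, Rorb, Bhlhe41, Tef, Hlf, Nfil3, Ciart, Csnk1d, Csnk1e, Fbxl21, Btrc, Fbxw11, Timeless, Cipc, Usp2 and Noct. Over the 19 genes named here, 4 of 114 pairs of gene and drug were called in the NAc, 3 higher and 1 lower, and 1 of 114 in the PFCx, higher, against 1.21% and 0.285% of all pairs. In the NAc, Nfil3, a repressor at D-boxes, rose from 0.726 FPKM after saline to 1.29 after haloperidol (0.41, adjusted p = 0.0207) and 1.33 after methamphetamine (0.44, adjusted p = 0.0247). Rorb, an activator at the sites of the REV-ERB receptors, rose from 2.63 to 3.34 FPKM after ketamine (0.26, adjusted p = 0.0177), and Csnk1e, a kinase of the PER proteins, fell from 15.7 to 11.1 FPKM after venlafaxine (-0.46, adjusted p = 0.0366). None of these 4 held against matched saline, where adjusted p was 0.281, 0.265, 0.0648 and 0.723, and after rescaling Rorb alone of them was called (adjusted p = 0.00932). In the PFCx, Ciart, a repressor of the BMAL1 and CLOCK pair, rose from 5.21 to 8.36 FPKM after mianserin (0.59, adjusted p = 0.0096), and this held against matched saline (adjusted p = 0.0156) and after rescaling (adjusted p = 0.00257).

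Lists of activity genes (Fos, Fosb, Junb, Arc, Egr1, Nr4a1 and Npas4) and of genes induced by glucocorticoid (Sgk1, Fkbp5, Tsc22d3, Zbtb16, Ddit4 and Nfkbia) moved in some of the same groups. In the NAc, where Per1, Per2 and Bhlhe40 rose after haloperidol, 6 of 7 activity genes (median 1.78 on the log2 scale) and 6 of 6 glucocorticoid genes (median 0.64) were called higher. After methamphetamine it was 6 and 2 (medians 1.196 and 0.32), and after risperidone 6 and 6 (0.74 and 0.82). Mianserin and ketamine had 2 activity genes each and 5 and 4 glucocorticoid genes called higher in the NAc. After these drugs Dbp was called lower there against all saline libraries, but not against matched saline. Venlafaxine, with no call among the members, had 3 activity genes called lower (median -0.33) and no glucocorticoid gene called. After rescaling, haloperidol kept all 6 activity calls and 2 of the glucocorticoid calls, methamphetamine 5 and none, and risperidone 4 and 4. In the NAc, the summed FPKM of 4 endothelial and mural markers was 11.1 to 11.98 after haloperidol and 9.86 to 12.1 after risperidone. Both lay below the 12.4 to 14.6 after saline, with none of the 4 called. The 7 cortical neuron markers summed to 78.4 to 101 FPKM in the NAc after haloperidol (mean 91.1), against 42.7 to 86.4 after saline (mean 64.4). After methamphetamine and risperidone the means of that sum were 76.4 and 73.1, and all of these ranges overlapped saline. The part of either marker list in the rises was not tested.

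In the PFCx, methamphetamine had 6 of 7 activity genes called higher and 1 of 6 glucocorticoid genes, mianserin 4 and 4, and risperidone 5 and 4. The summed FPKM of the activity genes there was 70.6 to 104 after methamphetamine, 58.2 to 81.8 after mianserin and 55.3 to 63.3 after risperidone, against 31.0 to 49.1 after saline. That of the glucocorticoid genes was 72.9 to 77.4 after mianserin and 57.1 to 66.3 after risperidone, against 35.3 to 43.2. Haloperidol, with no member called, had 5 activity and 3 glucocorticoid genes called higher. Ketamine, also with no member called, had 0 and 1, and its summed glucocorticoid genes, at 55.7 to 59.0 FPKM, lay above saline. The part of either list in the differences of the clock genes was not tested.

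Across the 64 libraries, after subtraction of the mean of each tissue and sample set, the genes most like Per1 were Sik1 (Pearson r = 0.75), Junb (0.70) and Dusp6 (0.70). Those most like Bhlhe40 were Dio2 (0.63), 5330406M23Rik (0.63) and Fos (0.63), and those most like Dbp were Car11 (0.74), Vstm2l (0.74) and Apoe (0.69). For Arntl the values were lower, with Ttc17 at 0.45 and Senp1 at 0.44 behind RP24-385J11.1 at 0.48. The search ran over 14502 genes, and the libraries share treatments and scale, so these are descriptions of likeness in this series. Within treatment groups, none of 90 pairwise relations among the members in the 2 tissues passed the adjustment (lowest adjusted permutation p = 0.26, with 10 at an unadjusted p under 0.05).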

How the data were processed

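RNA-seq of total RNA depleted of ribosomal RNA (Ion Total RNA-seq Kit v2, single-end) was analysed in 64 libraries. The deposited files hold, per transcript and library, FPKM and coverage that the authors made with Tmap 3.0.2, TopHat2 2.0.1 and Cufflinks 2.2.1 on build mm10 (per the labels and the study's methods). No read counts were analysed here, and depth was estimated from coverage over FPKM of transcripts of at least 2000 bases and 5 FPKM.

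FPKM were summed per gene, genes with a mean of at least 0.1 FPKM in either tissue were kept, and log2(FPKM + 1) was tested with limma 3.58.1 (R 4.3.3), adjusted by Benjamini-Hochberg over all genes or transcripts tested. Drug and tissue differences were called at an adjusted p under 0.05, the F over 6 drugs under 0.0001 and its difference between tissues under 0.001. A fold change on the log2(FPKM + 1) scale understates that of low genes. Single members were also tested by exact permutation with numpy 2.4.6. Saline sets I and II were joined as control. The drugs' sample set was read from the number of transcripts above 0 in the NAc. Genes named are the 10 members, their main or called transcripts, a fixed clock list with values for its called genes and, for Per1, Dbp, Arntl and Bhlhe40, the 3 genes of highest r. Members and lists were chosen with earlier results of these data known. The model was tested on simulated data. Libraries are labelled as separate samples, and p-values measure the spread between them. Alternatives were another pseudocount, filter, scaling, trend, control set and replicate block, each library left out, transcripts above 0 throughout and status OK. The pair of PFCx libraries with high spiny neuron markers left out, and the block joined with matched saline, were chosen after the data were seen, as was the test of transcripts between saline sets. Some genes of the lists are not reported here.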

Additional observations from a re-analysis of the deposited data

Results flagged for a closer look

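Over 120 drug groups of 4 libraries and 20 saline groups of 8, 13 groups, all of 4, had 1 library that stood apart from the others by Dixon's criterion, which chance alone meets in about 1 of 20 groups. For called drug differences, these were the lowest Per1 value after risperidone in the PFCx (7.92 FPKM, with the next at 11.7), the lowest Per1 value after mianserin there (9.48, next 11.7) and the highest Bhlhe40 value after methamphetamine there (36.4, next 31.8). For the Per genes the others were Per2 in the PFCx, highest at 10.7 FPKM after risperidone (next 5.75) and at 7.68 after mianserin (next 4.38), and Per3 in the NAc, highest at 10.4 after haloperidol (next 8.73) and lowest at 8.15 after ketamine (next 10.02). In those 2 Per2 libraries the long transcript read 3.65 FPKM (risperidone) and 3.86 FPKM (mianserin). Dbp was highest at 29.2 FPKM after risperidone in the NAc (next 25.5) and at 17.9 after haloperidol in the PFCx (next 15.5). The remaining values were Cry1 at 2.50 FPKM after mianserin in the PFCx (highest, next 2.42), Nr1d1 at 9.51 after risperidone there (lowest, next 10.7), Nr1d2 at 13.3 after risperidone in the NAc (highest, next 11.1) and Bhlhe40 at 20.5 after venlafaxine in the PFCx (lowest, next 23.8).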

How the results depend on the processing

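The calls in the NAc rested on the scale and the control more than those in the PFCx. Rescaling to the same 75th percentile gave 10 NAc gene calls in place of 7 (6.76% of all pairs), 2 members with an effect over all drugs (Per3 and Cry2) in place of 1 (9.8% of genes), 9 members that differed between the NAc saline sets in place of 0, and 1 member (Per3) whose drug effect differed between tissues (6.19%), and it turned Per3 between tissues to -0.0064. Matched saline left 1 NAc gene call, 0 NAc members over all drugs and 2 NAc transcript calls. Saline set I as the only control left 2 PFCx gene calls, and saline set II alone left 4 tissue differences in place of 7. A pseudocount of 0.1 gave 0 NAc members over all drugs and 2 transcript calls in each tissue, and no filter on low genes also gave 0 such members. Other values of these counts were within 1.5 times the reported one. For matched saline, all saline libraries stay in the fit and 4 of them enter each difference. For the results with saline set I or II alone, fewer control libraries enter the fit. The cause of the changes in these counts was not tested.

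Leaving out 1 library in turn gave 5 to 8 NAc and 2 to 5 PFCx gene calls, 0 to 1 NAc members over all drugs, 0 to 1 members between the NAc saline sets, 3 to 7 NAc and 3 to 5 PFCx transcript calls, and 5 to 7 tissue differences. Same-numbered libraries of different groups correlated by 0.10 on average in the NAc and 0.106 in the PFCx, with single pairs as low as -0.27 and -0.39. Inside a sample set the mean was 0.18 and 0.25, against -0.06 and -0.08 for other numbers, with single pairs as low as -0.11 and -0.14. The replicate numbers were not read as pairs, since not every pair's correlation was over 0.1, although 28 of 32 NAc and 23 of 32 PFCx libraries correlated best with their own number inside their sample set. With the replicate number as a block, 7 NAc and 4 PFCx gene calls remained in number, 0 NAc members had an effect over all drugs and 6 tissue differences were called, and the block joined with matched saline gave 0 NAc gene calls, 0 members over all drugs and 2 NAc transcript calls. Without read counts, the counting error behind a value is unknown.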
